A study of Arabidopsis thaliana with 39 samples.

Results

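In root epidermis of Arabidopsis thaliana, 46 of the 806 genes in the deposited table were higher on iron-deficient (-Fe) medium than on iron-sufficient (+Fe) medium at both 30 and 36 h after transfer, once the best-known iron uptake genes had been set aside. The genes were picked by their measured values. A gene entered when the log2 ratio of its RPKM + 1 between -Fe and +Fe was at least 0.75 at 30 h and again at 36 h, and 60 genes did so, 7.44% of the table. RPKM is the number of reads scaled by the length of the gene and by a read total. A list of 18 genes, mainly of iron uptake and its control, was left out, and 14 of those 18 had met the rule. The values at 30 and 36 h, and every ratio of them to the start, are therefore given as a description with no test. The rule did not use the values at 6, 12, 18 and 24 h. The table itself is described as one of differentially expressed genes, which the paper called at any hour. Those earlier hours may thus have helped a gene into the table.

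The plants were 7-day-old seedlings of the pWER::GFP line in the Columbia (Col-0) accession, in which the WEREWOLF promoter marks the root epidermis with a green fluorescent protein, and this one marker line stood for every group. Seedlings on mesh were moved to -Fe or to fresh +Fe medium and harvested 6, 12, 18, 24, 30 and 36 h later, with roots on +Fe medium at 0 h as the start, and GFP-positive protoplasts were sorted for RNA. The labels give 39 libraries in 13 groups of 3, and the table holds a single authors' value per gene and group, so no value below has a spread or a number of replicates, and no difference could be tested. The WEREWOLF promoter is known to be active in the lateral root cap as well. The -Fe medium held ferrozine, an iron chelator. The sample labels give it no FeEDTA, whereas the methods text describes FeEDTA in both, and labels and methods name different library kits.

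Arabidopsis takes up iron by acidifying the soil with proton pumps, reducing ferric iron at the root surface with ferric reductases of the FRO family and carrying the ferrous ion into epidermal cells. Beyond this core, iron-deficient roots are known to change signalling adaptors, the degradation of regulators, phenolic exudates, nitrogen assimilation, cell walls and root hairs. Many of the genes below carry only a domain name in the annotation.

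The markers that could check the tissue were few in the table: 1 of 5 fixed epidermis markers, 1 of 3 root cap markers, and none of the 10 cortex, endodermis and stele markers, which were not analysed here. GL2, a regulator of non-hair epidermal cells, was at 168, 188, 173, 121, 98.1 and 113 RPKM on -Fe medium, against 404, 409.8, 187, 378, 248 and 154 RPKM on +Fe medium at 6, 12, 18, 24, 30 and 36 h, and at 189 RPKM at 0 h. It was thus lower on -Fe medium at 6, 12, 24 and 30 h by more than the threshold, while BRN1, a root cap regulator, had log2 ratios between -0.08 and 0.14. The part of such shifts in the results below was not tested, and in bulk RNA fewer cells of a type and less RNA per cell cannot be told apart. The depth behind the values is unknown. When the groups were centred on their medians, the log2 ratios of -Fe to +Fe shifted up by 0.20 for 24 h, by 0.16 for 30 h and by under 0.1 for the other hours.

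Many of the 46 genes were already higher on -Fe medium at hours that the rule did not use, with the highest count at 18 h. That order of the hours rests on the 36 h part of the rule: of 77 genes chosen at 30 h alone, 27, 39, 36 and 45 were past the threshold at 6, 12, 18 and 24 h, so the count was highest at 24 h. At 6 h 16 of them (34.8%) had a log2 ratio of at least 0.75, against 9.18% of the table's genes. At 12 h the number was 23 (50%, against 10.8%), at 18 h 36 (78.3%, against 6.82%) and at 24 h 29 (63.0%, against 9.31%). At 18 h the 36 genes made up most of the 55 genes of the whole table past the threshold, and every one of the 46 had a ratio above 0, from 0.15 in PE11 to 2.96 in GRF11. The share was lower again at 24 h: 9 genes past the threshold at 18 h, among them DGR2, GH9B8, AHA7 and AT3G23550, were not past it at 24 h, and PE11 and RNS1 were past it at 24 h but not at 18 h.

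The medians followed the same course. Over the 46 genes the median log2 ratios at 6, 12, 18 and 24 h were 0.33, 0.79, 1.27 and 1.09, against 0.15, 0.07, 0.02 and 0.02 over all 806 genes. At 30 and 36 h, where the rule fixed a floor and 11.3% and 9.8% of the table were past the threshold, the medians were 1.63 and 1.93. In the other direction, 2 of the 46 genes were lower on -Fe medium by the threshold at 6 h, where 23.3% of the table's genes were. At 12, 18 and 24 h the count was 0, where 23.6%, 11.4% and 30.1% of the table were lower. On the centred values 34 of the genes were past the threshold at 24 h, where 15% of the table were. In the whole table at 24 h, genes higher on -Fe medium made up 23.6% of those past the threshold in either direction, and 34.8% after centring. The table is described as one of differentially expressed genes, so its shares are not those of a genome.

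**Figure D1:**
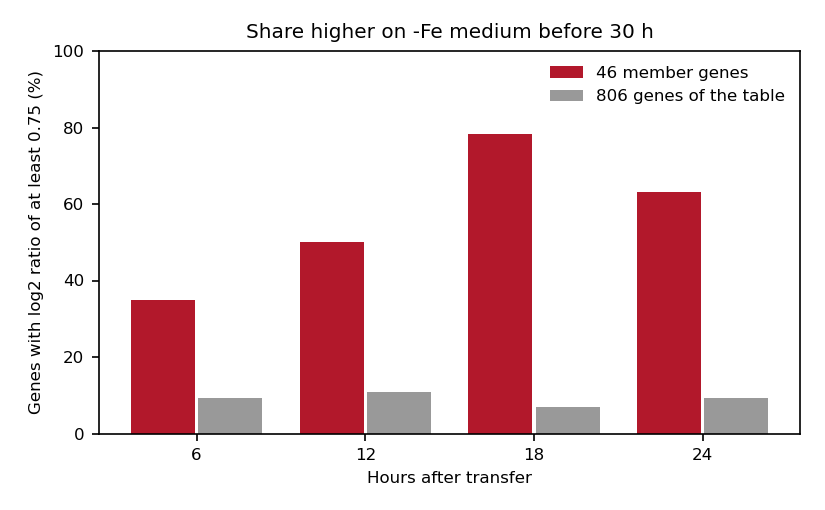
Share of genes, in percent, with a log2 ratio of RPKM + 1 between -Fe and +Fe of at least 0.75. The 4 hours shown are those that the rule did not use. Red bars are the 46 genes and grey bars all 806 genes of the table, which include the 46; the red bars stand at 34.8%, 50%, 78.3% and 63.0% at 6, 12, 18 and 24 h, above the grey bars at each hour.

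Single genes differed in when the ratio first stayed past the threshold. For 10 of them it was past at 6 h and at every later hour, which 2.36% of the table's genes reached at 6, 12, 18 and 24 h together: AT1G07590, MT1C, NRT1.1, NIA1, AT2G41380, AT3G07720, PGIP1, FRO4, ADS4 and COBL6. It stayed past from 12 h in 7 genes, from 18 h in 10, from 24 h in 2 and from 30 h in 17. The rule put every gene past the threshold at 30 and 36 h. These counts therefore describe the 46 alone and were not made over the table. DGAT3, GLX2-5, 4CL2 and AT5G13210 were not past the threshold at any of the 4 earlier hours, and 79.7% of the table's genes were not either. Over 6 to 24 h, 21 of the 46 genes had every -Fe level above every +Fe level, against 9.8% of the table, and over 6 to 36 h, which takes in the hours of the choice, 19 did, against 4.22%. The highest ratio fell at 36 h in 25 genes, at 30 h in 16 and at an earlier hour in 5. The rule asked for high ratios at 30 and 36 h and so favoured a peak at those hours. The same count over the table was not made.

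**Figure D2:**
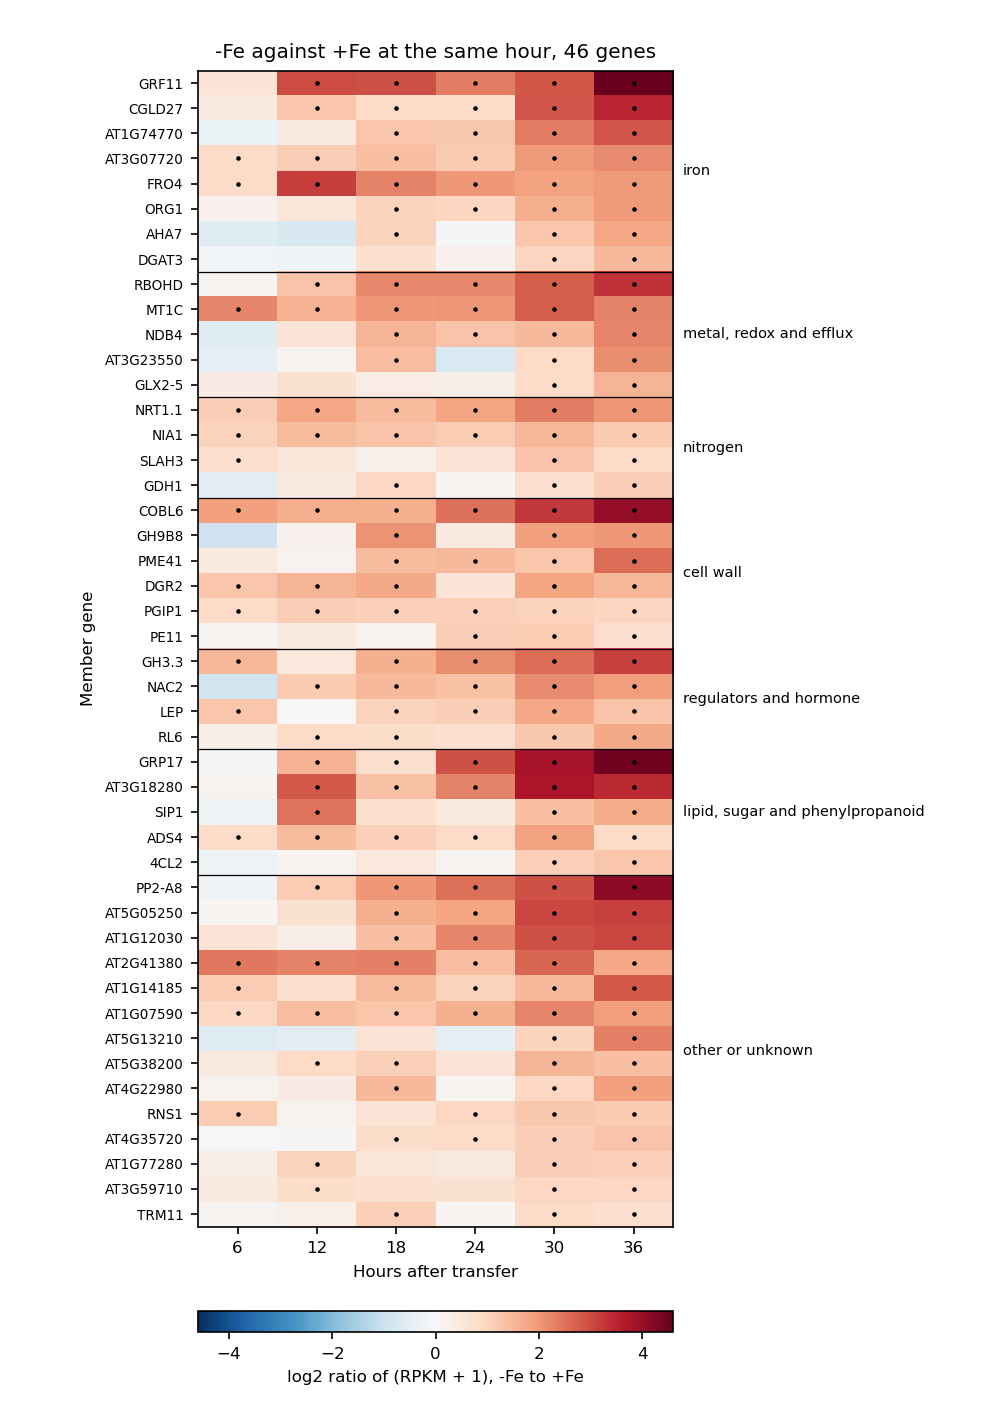
Log2 ratio of RPKM + 1 between -Fe and +Fe for each of the 46 genes (down the page, grouped by role) at 6 to 36 h after transfer (across). Red is higher and blue lower on -Fe medium, and a dot marks a ratio of at least 0.75; the 30 and 36 h columns carry dots throughout because they chose the genes, and 36 genes carry one at 18 h.

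The same ratio was reached in different ways, which the 0 h value brings out. The comparisons of both media with 0 h share that one group, and also share their -Fe and +Fe values with the ratios above. At 36 h, 30 of the 46 genes were above their 0 h level by the threshold on -Fe medium, where 9.68% of the table were, and 20 were below it on +Fe medium, where 5.33% of the table were. Of the 46, 21 were above 0 h on -Fe medium without being below it on +Fe medium. Another 11 were below 0 h on +Fe medium without being above it on -Fe medium, 9 did both and 5 did neither. The rule held the media at least 0.75 apart at 36 h, which favours every class but the last. The split was not compared with the table.

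The lower levels on +Fe medium were there well before 30 h. On -Fe medium 13, 11, 5 and 4 genes were below 0 h by the threshold at 6, 12, 18 and 24 h, where 7.07%, 6.08%, 10.3% and 12.2% of the table were. On +Fe medium the numbers at these hours were 21, 30, 27 and 23, where 23.4%, 19.1%, 13% and 14.9% of the table were. Above 0 h by the threshold on -Fe medium were 9, 14, 16 and 15 genes, where 15.3%, 11.3%, 10.9% and 4.96% of the table were. On +Fe medium 9, 4, 1 and 0 genes were above it, where 28.2%, 26.3%, 16% and 25.2% of the table were. At 30 h 19 were above 0 h on -Fe medium (5.96% of the table) and 31 below it on +Fe medium (15.5%). Of the 46, 26 stayed below their 0 h level, by any size, at all 6 hours on +Fe medium, as 30.6% of the table did. No untransferred plants of the later hours were analysed here, so transfer, age and hour of day cannot be told apart in the +Fe course.

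**Figure D3:**
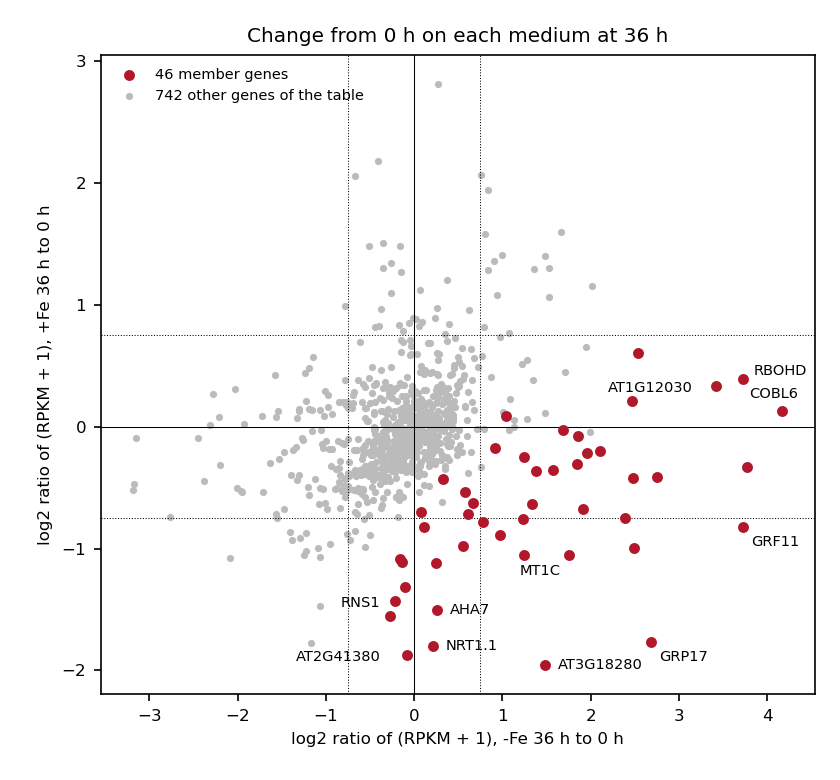
Log2 ratio of RPKM + 1 to the 0 h level at 36 h, on -Fe medium (horizontal) and on +Fe medium (vertical), for the 46 genes (red) and 742 other genes of the table (grey); dotted lines mark 0.75 and -0.75. Genes such as RBOHD and COBL6 lie far to the right near the level of 0 h on +Fe medium, genes such as NRT1.1 and AT2G41380 lie low with a -Fe level near 0 h, and GRP17, GRF11 and AT3G18280 did both.

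Among the genes with a link to iron, the clearest was GRF11. It is a protein of the general regulatory factor (GRF) family that acts in the iron response of roots. It had the largest 36 h log2 ratio of RPKM + 1 of the 46. In RPKM alone the largest fold at 36 h was that of GRP17, 50-fold. GRF11 was at 12.2, 23.1, 27.2, 21.4, 35.1 and 78.8 RPKM on -Fe medium at 6, 12, 18, 24, 30 and 36 h, against 7.61, 1.99, 2.61, 3.36, 3.97 and 2.4 RPKM on +Fe medium at the same hours and 5.03 RPKM at 0 h. No -Fe level lay below any +Fe level, and at 36 h the -Fe level was 32.8-fold the +Fe level in RPKM, with a log2 ratio of RPKM + 1 of 4.55. The 250 bases before its annotated start (chr1:12745749-12745998, minus strand, RefSeq's TAIR10.1) are shown because they hold the only CATGC or GCATG among these iron-linked genes beside that of AT3G07720, in capitals:
GRF11: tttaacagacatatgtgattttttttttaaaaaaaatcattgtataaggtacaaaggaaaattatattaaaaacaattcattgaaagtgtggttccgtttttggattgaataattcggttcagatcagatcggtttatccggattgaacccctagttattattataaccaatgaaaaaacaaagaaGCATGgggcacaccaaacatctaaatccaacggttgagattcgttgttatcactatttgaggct

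AT1G74770, annotated as a zinc ion binding protein, was highest at 36 h on -Fe medium, whereas on +Fe medium its highest level came at 6 h. AT1G74770 was at 59.5, 68.6, 101, 85.7, 118 and 162 RPKM on -Fe medium, against 73.3, 51.1, 40.8, 35.7, 22.1 and 21 RPKM on +Fe medium and 28.4 RPKM at 0 h. Its log2 ratio was -0.30 at 6 h and 2.89 at 36 h. ORG1, a gene with a known rise in iron-deficient plants, had a flat +Fe course. ORG1 was at 314, 356, 496, 486, 655 and 787 RPKM on -Fe medium, against 277, 241, 242, 247, 203 and 204 RPKM on +Fe medium and 216 RPKM at 0 h. The 6 +Fe levels of ORG1 spanned 203 to 277 RPKM, all below its lowest -Fe level.

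AT3G07720, a kelch repeat protein, was one of the most abundant of the 46 per unit of length. AT3G07720 was at 395, 367, 455, 473, 628 and 1189 RPKM on -Fe medium, against 216, 168, 173, 203, 161 and 261 RPKM on +Fe medium and 304 RPKM at 0 h. It was past the threshold at every hour, and its 36 h level on -Fe medium was 4.55-fold that on +Fe medium. CGLD27, a protein of unknown function conserved in the green lineage and diatoms, was low at first. CGLD27 was at 6.09, 6.66, 14, 13, 27.4 and 47.7 RPKM on -Fe medium, against 4.33, 2.15, 6.85, 6.46, 2.84 and 3.35 RPKM on +Fe medium and 7.65 RPKM at 0 h. Its ratio was past the threshold from 12 h on. FRO4, a ferric reductase family member, was a low-level gene in which the largest ratio came early. FRO4 was at 6.65, 14.6, 13.6, 9.4, 6.86 and 10.8 RPKM on -Fe medium, against 3.13, 0.738, 1.97, 1.61, 1.15 and 2.0 RPKM on +Fe medium and 3.65 RPKM at 0 h. Its log2 ratio was 3.17 at 12 h and 1.97 at 36 h. FRO4 shares a stretch of 718 bases at 91.9% identity with its neighbour AT5G23990, so reads of the pair may not be separable.

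AHA7, a plasma membrane proton pump, and DGAT3, an acyltransferase that carries an iron-sulphur cluster, behaved differently from the rest of this group. AHA7 was at 2.97, 4.05, 9.18, 8.24, 13.2 and 25.2 RPKM on -Fe medium, against 4.87, 7.38, 4.03, 8.67, 4.83 and 6.7 RPKM on +Fe medium and 20.9 RPKM at 0 h. AHA7 thus lay under its 0 h level on both media at 6 to 30 h and came back to it at 36 h on -Fe medium; the media overlapped until 24 h, with a log2 ratio of -0.73 at 12 h. DGAT3 was at 451, 442, 644, 529.5, 557 and 735 RPKM on -Fe medium, against 491, 514, 384, 459, 282 and 261 RPKM on +Fe medium and 309.6 RPKM at 0 h. DGAT3 was lower on -Fe medium at 6 and 12 h, with ratios of -0.12 and -0.22, just missed the threshold at 18 h and reached 1.49 at 36 h.

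A list of 38 further iron-response genes held 7 genes of the table, and 6 of those were among the 46: GRF11, AT1G74770, AT3G07720, CGLD27, ORG1 and DGAT3. The other, NRAMP4, a vacuolar iron exporter, reached 0.56 and 0.88 at 30 and 36 h. Of the 7, 1, 3, 5 and 5 genes were past the threshold at 6, 12, 18 and 24 h, where 9.18%, 10.8%, 6.82% and 9.31% of the table were. None was lower by the threshold. The median ratio of the 7 was 1.03 at 18 h, against 0.02 over all genes. The list was drawn up with results of these data known, and 6 of the 7 were chosen by their later ratios. The contrast with all genes is therefore only a description.

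The other genes, grouped by role after their values were seen, spread over several functions. By the threshold at 6, 12, 18 and 24 h, 2, 4, 7 and 6 of the 8 iron-linked genes were higher on -Fe medium, as were 1, 2, 4 and 3 of 5 genes of metal, redox and efflux, 3, 2, 3 and 2 of 4 nitrogen genes and 3, 3, 5 and 4 of 6 cell wall genes. Of the regulators and hormone genes it was 2, 2, 4 and 3 of 4, and of the lipid, sugar and phenylpropanoid genes 1, 4, 3 and 3 of 5. The shares of the whole table given above apply to each.

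RBOHD, the NADPH oxidase that makes superoxide at the plasma membrane, stood out among genes of redox and metal handling by the size of its ratio at 36 h. RBOHD was at 59.5, 103, 149.8, 107, 189.7 and 252 RPKM on -Fe medium, against 55, 40.4, 31.7, 22.4, 26.6 and 24.1 RPKM on +Fe medium and 18.1 RPKM at 0 h. At 6 h the media were close in level, with a log2 ratio of 0.11. From 12 h on, no -Fe level was under 103 RPKM, while the +Fe levels lay between 22.4 and 40.4 RPKM. The ratio was 2.21 at both 18 and 24 h and 3.34 at 36 h, where the levels differed 10.5-fold in RPKM.

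MT1C, a metallothionein, a small cysteine-rich protein that binds metal ions, took another course. MT1C was at 211, 228, 203, 362, 425 and 911 RPKM on -Fe medium, against 44, 75.3, 50.8, 88, 60.8 and 185 RPKM on +Fe medium and 385 RPKM at 0 h. On both media it was below 0 h at 6 to 24 h, but far more so on +Fe medium, and the -Fe level was above 0 h only at 30 and 36 h. All 6 -Fe levels lay above all 6 +Fe levels. NDB4, a mitochondrial NAD(P)H dehydrogenase, had the lowest mean level of the 46, 3.66 RPKM. NDB4 was at 1.02, 1.92, 4.38, 4.66, 5.54 and 18.2 RPKM on -Fe medium, against 1.98, 0.919, 0.823, 1.29, 1.3 and 3.02 RPKM on +Fe medium and 2.47 RPKM at 0 h. Its 36 h level on -Fe medium was more than all its other values, and such low values move much with the pseudocount.

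AT3G23550, a MATE family efflux carrier, was uneven over the hours. AT3G23550 was at 21, 21.7, 27, 11.2, 20.1 and 46.2 RPKM on -Fe medium, against 28.8, 20.0, 9.41, 18.6, 10.2 and 9.64 RPKM on +Fe medium and 12.2 RPKM at 0 h. It was past the threshold at 18 h with a ratio of 1.43 and lay at -0.69 at 24 h, so the media overlapped. GLX2-5, a glyoxalase, was not past the threshold before 30 h. GLX2-5 was at 30.2, 32.6, 34.4, 35.4, 41.8 and 81.9 RPKM on -Fe medium, against 23.2, 19.6, 26.9, 29.3, 22.5 and 26.9 RPKM on +Fe medium and 47.1 RPKM at 0 h. Its -Fe levels were nonetheless each above all its +Fe levels, by small margins until 30 h.

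Genes of nitrate transport and assimilation were mostly below their 0 h level on +Fe medium. NRT1.1 transports and senses nitrate, and NIA1 is a nitrate reductase. NRT1.1 was at 184, 281, 285, 343, 378 and 370.1 RPKM on -Fe medium, against 84.4, 80.6, 103, 95.6, 72.5 and 90.7 RPKM on +Fe medium and 319 RPKM at 0 h. NIA1 was at 74.1, 92.5, 155, 119, 144 and 134 RPKM on -Fe medium, against 35.2, 33.3, 62.6, 52.7, 48.7 and 57.7 RPKM on +Fe medium and 145 RPKM at 0 h. On -Fe medium both were below 0 h at 6 h by more than the threshold, with log2 ratios to 0 h of -0.79 for NRT1.1 and -0.96 for NIA1, and close to it at 36 h. Over the 6 hours the +Fe level was at most 103 RPKM for NRT1.1 and 62.6 RPKM for NIA1. Both were past the threshold at every hour, with ratios of 1.11, 1.79, 1.46 and 1.83 for NRT1.1 and 1.05, 1.45, 1.30 and 1.16 for NIA1 at 6, 12, 18 and 24 h.

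SLAH3, an anion channel that carries nitrate, had the same kind of course at a smaller size. SLAH3 was at 158, 143, 128, 133, 209 and 207 RPKM on -Fe medium, against 89, 96.5, 107, 84.9, 82.8 and 108 RPKM on +Fe medium and 192 RPKM at 0 h. Its media did not overlap, although its ratio was under the threshold at 12, 18 and 24 h. GDH1, a glutamate dehydrogenase, differed: 416, 467, 493, 374, 412 and 509 RPKM on -Fe medium, against 589, 353, 257, 350.5, 241 and 234 RPKM on +Fe medium and 341 RPKM at 0 h. It was lower on -Fe medium at 6 h, with a ratio of -0.50, and its media overlapped. In a fixed list of 13 sulphate and nitrate genes, 4 were in the table, NRT1.1 and NIA1 among them. NIA2, the other nitrate reductase, had ratios of 0.51, 0.89, 0.40, 0.08, 0.22 and -0.45 over the 6 hours, so it was past the threshold at 12 h, and NRT2.6, a nitrate transporter family member, was lower on -Fe medium at all 6 hours, with a ratio of -6.05 at 30 h.

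Among cell wall genes COBL6, a COBRA-like glycosylphosphatidylinositol-anchored protein, had the highest -Fe level relative to 0 h of the 46 at 36 h, a log2 ratio of 4.17. COBL6 was at 5.37, 12.2, 18.4, 35.9, 68.2 and 111 RPKM on -Fe medium, against 0.726, 3.14, 5.26, 5.45, 6.26 and 5.77 RPKM on +Fe medium and 5.19 RPKM at 0 h. Each -Fe level was above the one before it, and the +Fe levels stayed between 0.726 and 6.26 RPKM. The first 3 ratios, 1.88, 1.67 and 1.63, were of like size, and the last was 4.04, from levels 19.2-fold apart. At a pseudocount of 10 its ratio at 6 h was 0.52, with levels there of 5.37 RPKM on -Fe medium, against 0.726 RPKM on +Fe medium.

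GH9B8, a glycosyl hydrolase of the endoglucanase family, changed sides. GH9B8 was at 6.36, 19.7, 35, 35.1, 89.6 and 107 RPKM on -Fe medium, against 13.3, 16.9, 7.5, 25.3, 23.4 and 26 RPKM on +Fe medium and 44.7 RPKM at 0 h. It was lower on -Fe medium at 6 h, with a ratio of -0.96, and higher at 18 h, with 2.08. PME41, a pectin methylesterase, was above 0 h on both media at 6 and 12 h and parted from 18 h. PME41 was at 217, 164, 232, 152, 264 and 270.1 RPKM on -Fe medium, against 157, 147, 84.3, 53.9, 109.8 and 44.1 RPKM on +Fe medium and 71.1 RPKM at 0 h. PE11, a pectinesterase, was below 0 h on both media at 6 to 24 h and above it on -Fe medium at 30 and 36 h. PE11 was at 154, 218, 167, 341, 467 and 465 RPKM on -Fe medium, against 143, 158, 150.5, 154, 205 and 273 RPKM on +Fe medium and 369 RPKM at 0 h. Its 36 h ratio, 0.77, was the smallest of the 46.

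DGR2, a wall protein of the DUF642 family, and PGIP1, which inhibits fungal polygalacturonases, had -Fe levels near 0 h. DGR2 was at 215, 263, 237, 208, 219 and 329.9 RPKM on -Fe medium, against 88.4, 87.9, 69.6, 137, 61.6 and 114 RPKM on +Fe medium and 225 RPKM at 0 h. PGIP1 was at 21, 16.3, 13.2, 14.7, 11.4 and 14.4 RPKM on -Fe medium, against 10.6, 6.98, 5.58, 6.27, 4.98 and 6.85 RPKM on +Fe medium and 15.9 RPKM at 0 h. DGR2 was thus near 225 RPKM on -Fe medium at 6 to 30 h and lower on +Fe medium at each hour. PGIP1 had the most even ratio of those past the threshold at every hour, between 0.93 and 1.12. Of the 1169 exon bases of PGIP1, 1082 lie over a noncoding RNA gene, AT5G06865, on the other strand, and whether the counting used strand is not stated, so its reads cannot be told apart from that gene's.

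Regulators and hormone genes were few. GH3.3, an enzyme that couples auxin to amino acids, had a 36 h ratio of 3.16. GH3.3 was at 6.21, 2.33, 9.43, 22.4, 19.9 and 65.7 RPKM on -Fe medium, against 1.52, 1.39, 2.32, 4.32, 2.51 and 6.46 RPKM on +Fe medium and 8.93 RPKM at 0 h. Its level on -Fe medium dropped to 2.33 RPKM at 12 h, and its media overlapped there. NAC2, a NAC domain transcription factor, was the other gene lower on -Fe medium at 6 h, with a ratio of -0.91. NAC2 was at 1.66, 5.89, 3.15, 6.01, 6.53 and 15.5 RPKM on -Fe medium, against 3.99, 1.98, 0.48, 1.74, 0.661 and 3.32 RPKM on +Fe medium and 1.84 RPKM at 0 h. After 6 h each -Fe level was above the +Fe level of the same hour.

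LEP, an AP2/ERF transcription factor, and RL6, a RAD-like MYB protein, moved less. LEP was at 62.1, 43.6, 77.7, 63.6, 51.8 and 141 RPKM on -Fe medium, against 25, 42.7, 37.2, 28.7, 14.6 and 55.9 RPKM on +Fe medium and 92.2 RPKM at 0 h. RL6 was at 75.3, 54, 48.2, 30.4, 36.8 and 74.2 RPKM on -Fe medium, against 61.6, 28.1, 26.7, 17.7, 14.9 and 21.4 RPKM on +Fe medium and 27.9 RPKM at 0 h. LEP was above 0 h on -Fe medium at 36 h and below it on +Fe medium at every hour. RL6 was highest at 6 h on both media; its ratio was 0.28 there and 1.74 at 36 h.

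GRP17 and AT3G18280, from genes of lipid and surface proteins, had the largest 30 h ratios of the 46. GRP17 is a glycine-rich protein with an oleosin domain, best known from the pollen coat. GRP17 was at 0.95, 4.03, 4.96, 12.1, 35.6 and 37 RPKM on -Fe medium, against 1.1, 0.661, 2.44, 0.712, 1.62 and 0.74 RPKM on +Fe medium and 4.93 RPKM at 0 h. At 6 h both media were near 1 RPKM, and at 36 h the ratio was 4.45. Its +Fe levels at 12, 24 and 36 h were under 1 RPKM. At a pseudocount of 10 its ratios at 30 and 36 h were 1.97 and 2.13. Its 30 h ratio was then below that of COBL6, 2.27. AT3G18280, a lipid-transfer family protein, was below 0 h on both media at first. AT3G18280 was at 13.4, 15.5, 29.1, 28.1, 57.8 and 123 RPKM on -Fe medium, against 11.9, 1.35, 10.8, 5.01, 3.41 and 10.4 RPKM on +Fe medium and 43.3 RPKM at 0 h. On +Fe medium it stayed below 0 h at every hour, with 1.35 RPKM at 12 h as its lowest level.

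SIP1, named seed imbibition 1 and related to raffinose-family enzymes, was at 5.31, 9.41, 8.97, 6.71, 6.64 and 16.7 RPKM on -Fe medium, against 6.46, 0.845, 5.03, 4.63, 1.92 and 4.36 RPKM on +Fe medium and 4.48 RPKM at 0 h. Its 12 h ratio, 2.50, was larger than any later one and rests on a +Fe level of 0.845 RPKM. SIP1 shares 304 bases at 93.1% and 248 bases at 95.2% identity with AT4G01265, so reads of the pair may not be separable. ADS4, a fatty acid desaturase, was near 0 h on -Fe medium from 18 h on and past the threshold throughout. ADS4 was at 15.1, 13.7, 21.1, 20.6, 26 and 20.5 RPKM on -Fe medium, against 7.71, 4.39, 9.43, 10.6, 6.44 and 10.3 RPKM on +Fe medium and 23 RPKM at 0 h. Its media did not overlap, and it shares 190 bases at 90.5% identity with AT1G06360. 4CL2, a 4-coumarate:CoA ligase of the phenylpropanoid pathway and the only one of 11 fixed phenylpropanoid genes in the table, was below 0 h on both media at every hour. 4CL2 was at 9.45, 9.54, 19.2, 10.5, 14.7 and 34.6 RPKM on -Fe medium, against 11.3, 8.61, 13.3, 9.56, 6.42 and 13.6 RPKM on +Fe medium and 42 RPKM at 0 h. It was not past the threshold before 30 h.

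The genes with little more than a domain name included several with large ratios. AT5G05250, an uncharacterized protein, was at nearly the same level on both media at 6 h and then parted. AT5G05250 was at 35.8, 32.8, 38.4, 40.5, 59 and 63 RPKM on -Fe medium, against 33.3, 19.8, 11.6, 10.7, 6.16 and 6.25 RPKM on +Fe medium and 11.2 RPKM at 0 h. The -Fe level was at least 32.8 RPKM, and the +Fe level was lower at each hour until 30 h. Its log2 ratios were 0.10, 0.70, 1.64, 1.82, 3.07 and 3.14 at 6, 12, 18, 24, 30 and 36 h. The 250 bases before its annotated start (chr5:1558487-1558736, minus strand, TAIR10.1) are shown because they hold a pair of G-boxes, CACGTG, the letters that many plant bHLH proteins bind, 52 and 24 bases before the start and in capitals:
AT5G05250: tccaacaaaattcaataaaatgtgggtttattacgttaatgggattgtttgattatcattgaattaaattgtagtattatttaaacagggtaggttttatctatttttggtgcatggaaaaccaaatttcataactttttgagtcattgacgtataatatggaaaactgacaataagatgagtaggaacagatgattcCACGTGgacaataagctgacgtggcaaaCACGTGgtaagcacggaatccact

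PP2-A8, a phloem protein 2 family member, was slightly lower on -Fe than on +Fe medium at 6 h. PP2-A8 was at 12.6, 12, 19, 15.3, 24.6 and 67 RPKM on -Fe medium, against 14.1, 4.82, 4.06, 1.85, 2.34 and 2.97 RPKM on +Fe medium and 3.98 RPKM at 0 h. Its 36 h ratio was 4.10, the third largest. AT1G12030, a DUF506 protein, had a +Fe course near 0 h. AT1G12030 was at 18.4, 19.9, 26.8, 38, 75.1 and 109 RPKM on -Fe medium, against 11.5, 15.9, 9.63, 7.22, 8.91 and 12 RPKM on +Fe medium and 9.28 RPKM at 0 h. Its lowest -Fe level, 18.4 RPKM, was above its highest +Fe level, 15.9 RPKM.

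AT2G41380, an S-adenosylmethionine-dependent methyltransferase family protein, had a large ratio from 6 h on. AT2G41380 was at 91.9, 86.7, 107, 93.3, 121 and 112 RPKM on -Fe medium, against 16.2, 16.9, 21, 34.6, 17.8 and 31.6 RPKM on +Fe medium and 118 RPKM at 0 h. Its 6 h log2 ratio of RPKM + 1, 2.43, was the largest of the 46 at that hour, and came with a -Fe level under that at 0 h. In RPKM alone COBL6 had a larger fold at 6 h, 7.39 against 5.67 for AT2G41380. AT5G38200, a glutamine amidotransferase-like protein, had the highest mean RPKM of the 46, 1307, a level per gene length. AT5G38200 was at 1596, 1644, 1479.5, 1485, 1984 and 1998 RPKM on -Fe medium, against 1156, 878, 695, 958, 664 and 774 RPKM on +Fe medium and 1685 RPKM at 0 h. It too stayed near 0 h on -Fe medium and lay lower on +Fe medium at each hour.

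AT1G07590, a tetratricopeptide repeat protein, was past the threshold at every hour. AT1G07590 was at 471, 559.8, 442, 798, 952 and 1492 RPKM on -Fe medium, against 244, 209, 183, 259, 201 and 391 RPKM on +Fe medium and 502 RPKM at 0 h. The gene lies 2055 bases from MT1C, with 2 genes between, and the course of their ratios may be set side by side: 0.95, 1.41, 1.27, 1.62, 2.24 and 1.93 for AT1G07590 and 2.24, 1.58, 1.98, 2.03, 2.78 and 2.29 for MT1C. AT1G07590 shares 138 exon bases on the same strand with AT1G07600, and has stretches of 128 bases at 90.6% identity with MT1C and of 189 bases at 97.4% identity with AT5G56795. Reads of these genes may therefore be counted for AT1G07590.

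AT1G14185, a glucose-methanol-choline oxidoreductase, was above +Fe medium at each hour, with ratios of 1.17, 0.75, 1.45, 1.07, 1.49 and 2.81; the 12 h value was just under the threshold. Its levels were 16.8, 12.2, 13, 9.18, 8.56 and 19.2 RPKM on -Fe medium, against 6.94, 6.84, 4.12, 3.85, 2.4 and 1.87 RPKM on +Fe medium and 4.97 RPKM at 0 h, and it shares 1458 bases at 92.3% identity with sequence at AT1G14190 and AT1G14200. AT5G13210, an uncharacterized conserved protein, was late: 17.1, 18.1, 26.4, 18.5, 32.3 and 85 RPKM on -Fe medium, against 26.6, 25.7, 16.3, 24.8, 15.3 and 16.4 RPKM on +Fe medium. It was lower on -Fe medium at 6, 12 and 24 h, by less than the threshold, and had the largest 36 h ratio, 2.31, of the 4 genes not past it before 30 h. AT5G13210 also has several like stretches elsewhere in the genome, one of 168 bases at 91.7% identity, so its reads may not all be its own.

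The other 6 genes had 36 h ratios between 0.77 and 1.87. RNS1, a secreted ribonuclease, was at 37.5 RPKM on -Fe medium, against 15.6 RPKM on +Fe medium at 36 h, with 43.9 RPKM at 0 h. AT4G22980, a molybdenum cofactor sulfurase-like protein, was at 14.6 RPKM on -Fe medium, against 3.27 RPKM on +Fe medium at that hour, and was past the threshold at 18 h too, with 1.48. AT4G35720, a DUF241 protein, was at 61.5 RPKM on -Fe medium, against 24.5 RPKM on +Fe medium at 36 h and had ratios of 0.01 and -0.09 at 6 and 12 h. These had -Fe and +Fe levels that overlapped over the hours.

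AT1G77280, a protein kinase with an adenine nucleotide hydrolase-like domain, was at 206 RPKM on -Fe medium, against 96.1 RPKM on +Fe medium at 36 h, with its largest earlier ratio, 1.04, at 12 h. AT3G59710, an NAD(P)-binding Rossmann-fold protein, had ratios within 0.41 and 0.96 at the 6 hours and a jump on both media at 36 h, to 189 RPKM on -Fe medium, against 97 RPKM on +Fe medium. TRM11, annotated as an uncharacterized protein, was at 51.5 RPKM on -Fe medium, against 29.8 RPKM on +Fe medium at 36 h. TRM11 and AT3G59710 were near the lower edge of the group in their ratios.

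**Figure D4:**
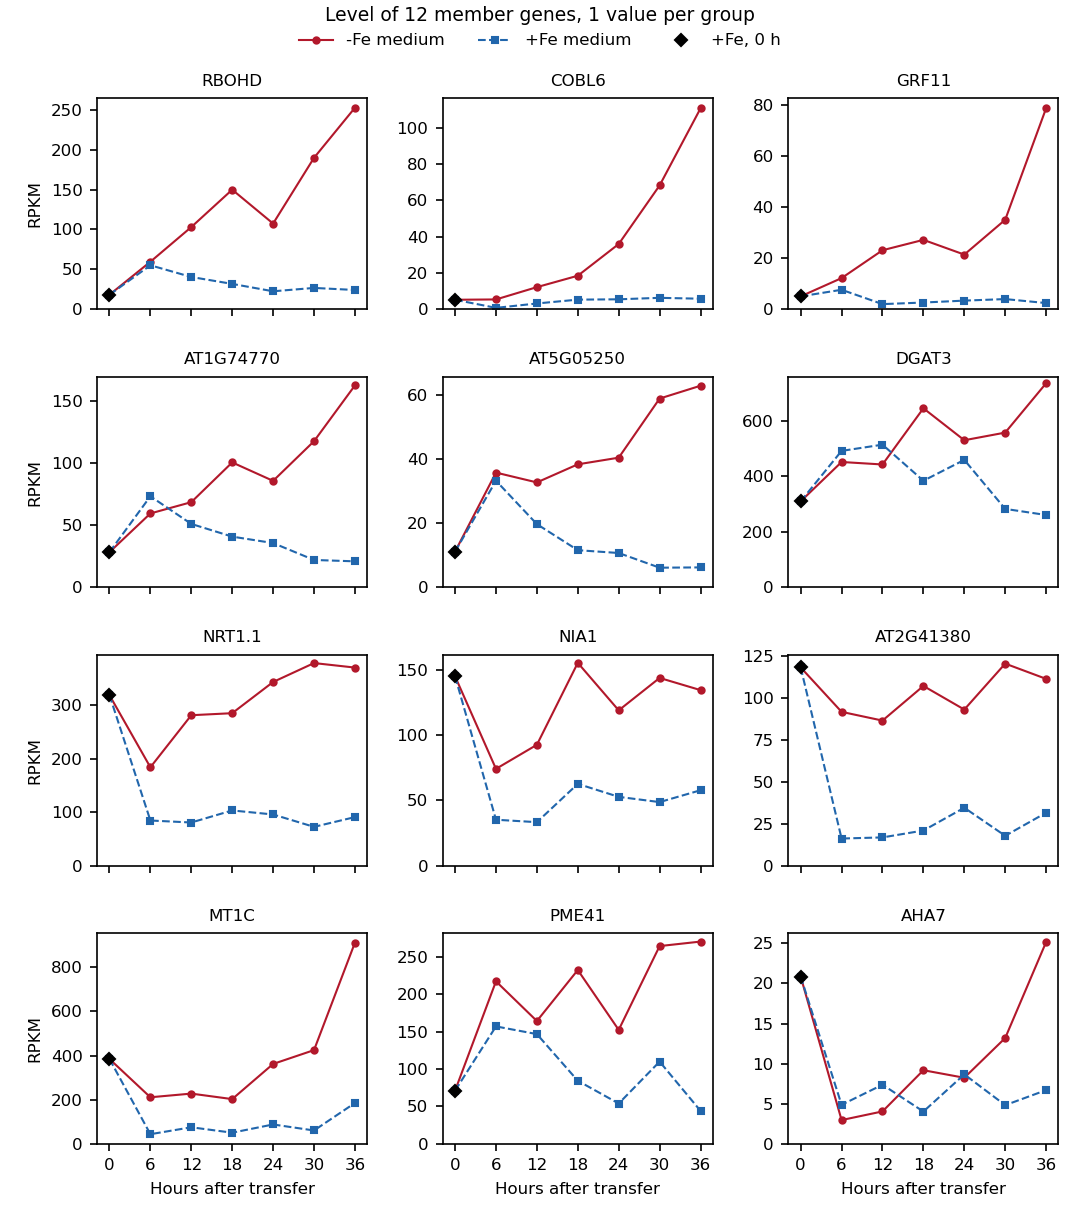
RPKM of 12 of the 46 genes at 0 to 36 h after transfer on -Fe medium (red, solid) and +Fe medium (blue, dashed), joined to the shared 0 h value on +Fe medium (black diamond); each point is one authors' value per group, with no error bar, and each vertical axis starts at 0. RBOHD, COBL6 and GRF11 climb on -Fe medium over a low +Fe course, NRT1.1 and NIA1 dip below 0 h on -Fe medium at 6 h and are near it again at 36 h, AT2G41380 stays near it, all over a lower +Fe course, and AHA7 dips on both media.

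At the edge of the rule, the smaller of the 30 and 36 h ratios was 0.77 for PE11, TRM11 and GDH1, the last genes in. DTX35, with 0.73 at 30 h and 1.29 at 36 h, MYB30, with 0.76 and 0.71, and AT5G60800, with 0.70 and 0.86, were the first left out. The ratios ran up to 3.80 at 30 h and 4.55 at 36 h. The 46 spread widely in level, with a median below that of the table. Their mean RPKM over the 13 groups had a median of 28.1, against 224 for all genes. Of the 46, 8 had a mean under 10 RPKM and 13 a mean of at least 100 RPKM. Of the 598 values of the 46 genes, 11 were under 1 RPKM and none was 0.

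The promoters of the 46 were searched on both strands for 6 short words in the 250 bases before the annotated start. A G-box, CACGTG, was found in 4 (8.7%), against 8.98% of 802 promoters of the table and 6.49% of 27443 promoters of the genome. CATGC was in 13 (28.3%, against 21.9% and 17.2%), GTAC in 14 (30.4%, against 35% and 34.3%), TTGAC, the core of the W-box, in 23 (50%, against 49.4% and 44.9%), GNATATNC in 4 (8.7%, against 5.36% and 5.46%) and TATAAA in 25 (54.3%, against 52.7% and 47.3%). The words can share bases in a promoter, and the counts carry no test. The 4 genes with a G-box were AT1G07590, GDH1, AT5G05250 and DGAT3, which are not alike in course: AT1G07590 was past the threshold at every hour and DGAT3 at none before 30 h. The letters CACGTG lie at chr1:2339454-2339459 for AT1G07590, chr5:6005995-6006000 for GDH1, chr5:1558533-1558538 for AT5G05250, chr5:1558505-1558510 for AT5G05250 and chr1:17846822-17846827 for DGAT3 (TAIR10.1). Each site is shown with 8 bases on either side, to let the flanks be compared, with the G-box in capitals:
AT1G07590: gaaaatgcCACGTGtatggtgg
GDH1: atatcgatCACGTGcctgtgta
AT5G05250 (52 bases before the start): gatgattcCACGTGgacaataa
AT5G05250 (24 bases before the start): gtggcaaaCACGTGgtaagcac
DGAT3: aaattttcCACGTGgcaatccg

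The bases on either side of CACGTG differed between the sites, and 4 of the 5 sites lie within 68 bases of the start. A match is no evidence of binding.

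In the genome the 46 lay on all 5 chromosomes, 14 on chromosome 1, 7 on each of 2 and 3, 4 on 4 and 14 on 5. Besides AT1G07590 and MT1C, FRO4 and SLAH3 have 4 genes between them, as do AT4G22980 and TRM11, and AT3G18280 has 1 gene between it and BTS, a regulator of iron uptake among the 18 genes set aside. In 9 of the 46, exons overlap those of another annotated gene, and 6 have a stretch of at least 125 bases at 90% identity or more elsewhere in the genome. Without the genes of either kind, 32 of the 46 were left, and 10, 15, 26 and 23 of these were past the threshold at 6, 12, 18 and 24 h. Fixed lists for iron storage (3 in the table, all lower on -Fe medium by the threshold from 18 h on), methionine and ethylene (2) and copper and redox (1) held none of the 46.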

How the data were processed

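The 46 genes, the lists and the groups of genes by role were chosen with earlier results of these data known, and the role groups after their values were seen. The deposited values are RPKM that the authors computed with RSubread after trimming and TopHat2 mapping to TAIR10, with 13 values, one for each group, for each of 806 genes. How 3 libraries became one value, which read total and annotation were used and whether strand was used are not given in the sources used here. Depth could not be recovered: when low values were divided by a common step, 9.62% of 852 came within 0.05 of a whole number, where chance gives 10%.

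Log2 ratios of RPKM + 1 were computed for -Fe to +Fe at the same hour and for either medium to 0 h. Genes with a ratio of 0.75 or more, or of -0.75 or less, were counted. With 1 value per group there is no spread, interval or test, and the counts over all 806 genes stand beside those of the 46. Genes were described by a fixed rule: the 10 with the largest mean of the 30 and 36 h ratios, those past the threshold at each of 6, 12, 18 and 24 h, the 5 with the largest 36 h ratio among those past it at none of these hours (4 genes qualified), those lower on -Fe medium at an earlier hour, the 3 on either side of the threshold, the 5 with the highest and the 3 with the lowest mean, members of the lists and neighbours in the genome. The remaining genes were given for completeness, more briefly.

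Promoters, exons and positions were read from the TAIR10.1 assembly with its RefSeq annotation, in which all 46 genes were found by locus. The deposited table has no coordinates. A promoter table had been planned as the source, and the assembly was used in its place. Protein sequences were not compared. Similar stretches came from blastn 2.17.0. Scripts in Python 3.11.15 with pandas 2.3.3, numpy 2.4.6 and matplotlib 3.10.9 were tested on simulated data. Alternatives were pseudocounts of 0.1 and 10, a threshold of 1, a mean of at least 10 RPKM, centring on the group medians, the choice at 1 hour, 0 h as the control and promoters of 100 bases. Leaving out overlapping or copied genes, and the counts against 0 h at 12 and 36 h, were added after seeing the data.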

Additional observations from a re-analysis of the deposited data

Results flagged for a closer look

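A pair of the 46 genes went one way at 6 h and the other way later. GH9B8 had a log2 ratio of RPKM + 1 between -Fe and +Fe of -0.96 at 6 h, against 1.89 and 2.00 at 30 and 36 h. NAC2 had -0.91 at 6 h, against 2.18 and 1.93 at 30 and 36 h. With 1 value per group the difference between the hours was not tested, and the later values are among those that chose the genes. NAC2 had 1.66 RPKM on -Fe medium, against 3.99 RPKM on +Fe medium at 6 h, which is a low level.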

How the results depend on the processing

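Of the counts recomputed under another setting, 22 moved by more than 1.5 times and 64 did not. These are raw counts, some from gene sets of another size or from shorter promoters, so the tally does not tell whether a share changed. A pseudocount of 10 gave 30 genes in place of 46. The next 3 counts were taken over the original 46 genes and not over the 30. At a pseudocount of 10, 9 were past the threshold at 6 h in place of 16, where 6.2% of the table were in place of 9.18%. At all 4 earlier hours 6 were past it in place of 10, and 11 were below 0 h on +Fe medium at 36 h in place of 20. A threshold of 1 gave 10, 5 and 13 for these 3 counts, also over the 46, and 3.72% of the table were past it at 6 h. For all 4 earlier hours and for +Fe medium against 0 h, the table's shares at these settings were not computed. Without overlapping or copied genes the counts were 10 at 6 h, 15 at 12 h in place of 23, and 6 at all 4 hours, with 32 genes left to count. Choosing at 30 h alone gave 77 genes, with 27, 39, 36 and 45 past the threshold at 6, 12, 18 and 24 h, so that 24 h and not 18 h had the highest count. At 36 h alone it gave 64 genes, with 17, 23, 38 and 30. With 0 h as the control 9, 14, 16 and 15 were higher on -Fe medium at 6, 12, 18 and 24 h, in place of 16, 23, 36 and 29. In promoters of 100 bases CATGC was in 6 (13%, against 9.1% of the table's promoters and 6.85% of the genome's). GTAC was in 4 (8.7%, against 15.7% and 15%) and TTGAC in 10 (21.7%, against 24.8% and 21.3%). GNATATNC was in 2 (4.35%, against 2% and 2.02%). The window was shorter, and the shares of the table's promoters were also lower than at 250 bases. The genes lost at a pseudocount of 10 included AHA7, FRO4, NAC2 and NDB4, and those at a threshold of 1 included DGAT3, GDH1, PE11 and TRM11. No paired analysis was possible because the table gives 1 value per group, and for that reason no replicate was left out either.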
